A study of Mus musculus with 4 samples.

Results

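The p53 protein is a transcription factor that switches on genes of cell-cycle arrest, DNA repair, apoptosis and metabolism when cells are stressed. In C2C12 myoblasts depleted of Fxr1, 34 genes of this network were followed, namely Trp53 itself, its partners and its targets other than the cell-cycle inhibitor Cdkn1a. Members were chosen by name: each non-control probe of the array that carries 1 of the 34 gene names was taken, which gave 42 probes, with 1 probe for 26 genes and 2 probes for 8. By role, 6 genes belong to feedback and control of p53, 6 to DNA repair, 7 to death receptors and apoptosis, and 15 to metabolism or growth restraint. A gene is described by its brightest probe and counts as measured where, in siFxr1 or in siControl, the scanner software marks that probe as well above background on both replicates. This held for 33 of the 34 members and for 14316 of the 23588 genes that the array names. Of the 33, 32 were well above background on every array.

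C2C12 is a mouse myoblast line that divides in growth medium and can fuse into myotubes. The siFxr1 cells were transiently transfected with an siRNA against exon 14 of the mRNA of Fxr1, an exon shared by all its isoforms, and the siControl cells with a commercial random siRNA of matching GC content. RNA of cells taken 48 hours after transfection was hybridised on 4 one-colour arrays, 1 for each condition in each of 2 independent experiments. Both conditions therefore share the line, the transfection and the time, and the depletion rests on a single siRNA on these arrays.

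The knockdown was seen in both experiments: the brighter probe of Fxr1 differed between siFxr1 and siControl by -3.69 on the log2 scale in experiment 1 and by -2.93 in experiment 2. Of the myoblast markers, Myod1, Des and Cdh15 were well above background on all 4 arrays and Myf5 on none. All 5 myotube markers (Myog, Ckm, Myh3, Acta1 and Mybph) were well above background on every array as well. Ptprc and Epcam, which mark leukocytes and epithelial cells, were not well above background on any array, and the dim endothelial marker Pecam1 was so on 3. Between 45.4% and 52.9% of the 55681 probes were well above background, and the siFxr1 RNA of experiment 1 had an integrity number of 8, compared with 9 in the remaining samples.

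In unstressed cells p53 is kept scarce by MDM2, a ubiquitin ligase that marks it for degradation and that is itself a p53 target, which closes a feedback loop. Its activity is controlled mainly on the protein rather than through the amount of Trp53 mRNA. Activated p53 binds as a tetramer to a pair of half-sites, each of 10 bases, near its target genes. In muscle precursors it is known both for restraining division and for a part in differentiation.

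To show what such sites look like in these genes, the promoter windows of RefSeq (GRCm38.p6, 250 bases before to 50 after a transcription start) were searched on both strands with the p53 half-site consensus. Windows were found for 26 of the 34 members, and 8 of these (30.8%) hold a half-site, against 2582 of all 27025 genes with a window (9.55%). The 8 are shown in the direction of the gene, with the half-site in capitals and 10 bases on either side.
Mdm2 (chr10:117710925-117710954, minus strand): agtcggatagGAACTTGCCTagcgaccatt
Ccng1 (chr11:40755452-40755481, minus strand): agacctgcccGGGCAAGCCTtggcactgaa
Polk (chr13:96519399-96519428, minus strand): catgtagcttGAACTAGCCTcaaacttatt
Aen (chr7:78895927-78895956, plus strand): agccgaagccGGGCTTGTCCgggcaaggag
Ei24 (chr9:36797325-36797354, minus strand): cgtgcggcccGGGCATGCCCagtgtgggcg
Sesn1 (chr10:41887256-41887285, plus strand): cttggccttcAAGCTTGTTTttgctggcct
Trp53 (chr11:69580274-69580303, plus strand): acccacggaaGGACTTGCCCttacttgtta
Gadd45a (chr6:67037428-67037457, minus strand): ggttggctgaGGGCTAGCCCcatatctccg
Counted from the transcription start, the first base of the half-site lies between position -231 (Polk) and -10 (Ei24), and in Aen it lies at -121 from 1 annotated start and at 11 from another. A full site, with 2 half-sites at most 13 bases apart, was found in 0 of the 26 members and in 20 genes (0.0740%). The best known sites of Mdm2 and Gadd45a lie in introns, outside these windows. A match to these letters is not evidence of binding.

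The members were first compared within each experiment. Of the 33 measured members, 20 were higher in siFxr1 in both experiments, beside 35% of all measured genes, and 3 were lower in both, beside 31.5%. At least 1.5-fold higher in both were 13 members, beside 5.82% of all genes, and at least 1.5-fold lower 0, beside 5.47%. At the limit of 2-fold, 4 members were higher in both (Eda2r, Zmat3, Ptprv and Psrc1), beside 2.21% of all genes, and 0 were lower, beside 1.47%. Eda2r passed the filter on dim probes through its siFxr1 arrays alone. Among the 32 members well above background everywhere, 19 were higher in both experiments, 12 by at least 1.5-fold and 3 by at least 2-fold. The shares of all genes given above are not limited to genes well above background everywhere.

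The median log2 difference of the members was 0.52, at 0.39 in experiment 1 and 0.87 in experiment 2, while that of all measured genes was 0.02. On both siFxr1 arrays, 14 members lay above both siControl arrays, beside 17.3% of all genes, and 2 lay below both, beside 15.8%. Role group medians were 0.96 for death receptors and apoptosis, 0.56 for metabolism or growth restraint, 0.55 for feedback and 0.35 for DNA repair. The ranges overlapped, at -1.60 to 2.20, -1.81 to 2.27, -0.21 to 1.08 and -0.16 to 0.99 in the same order. The first group includes Eda2r, which the filter kept through its siFxr1 arrays alone.

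With the model that has the condition as its only term, 0 members reached a B value above 0 or an adjusted p under 0.05, and 0% of all measured genes did so. The adjusted p of the measured members in limma lay between 0.950 (Zmat3) and 0.996 (Mdm4), and the lowest of any probe was 0.950. At an unadjusted p under 0.05, 9 members were higher in siFxr1 (Mdm2, Ccng1, Trp53inp1, Tnfrsf10b, Sesn2, Phlda3, Btg2, Zmat3 and Psrc1), beside 3.77% of all genes, and 0 were lower, beside 3.79%. When the 4 ratios of a siFxr1 over a siControl array were fitted as observations, 2 members had a B value above 0 and were higher (Phlda3 and Zmat3), beside 1.38% of all genes, and 0 were lower, beside 1.52%. These ratios share arrays, which understates the error. With the experiment as a block and dim probes removed, 3 members were called higher (Eda2r, Ptprv and Psrc1), beside 1.01%, and 0 lower, beside 0.475%. Without Eda2r, which the filter kept through its siFxr1 arrays alone, the count was 2 of 32, and with the block alone it was 0.

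**Figure D1:**
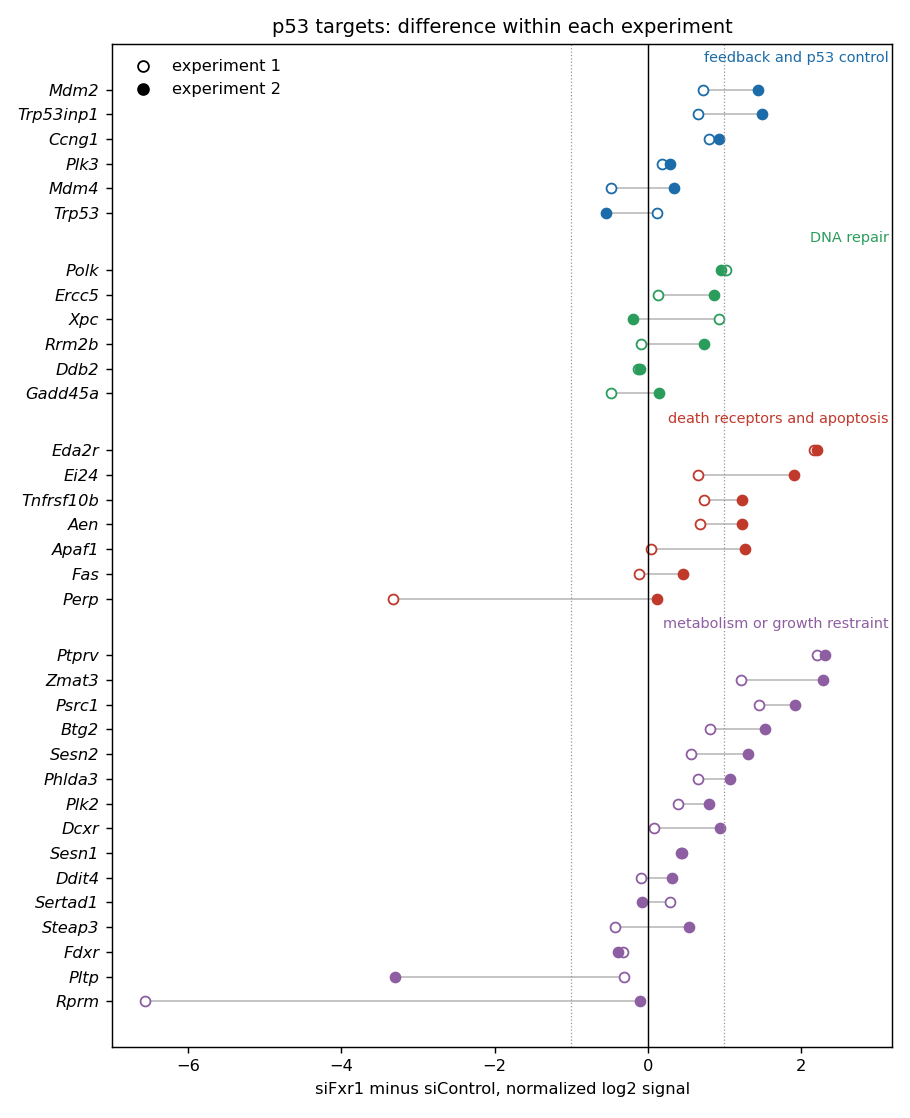
Difference between siFxr1 and siControl on the log2 scale for the brightest probe of each of the 34 genes, with experiment 1 as an open and experiment 2 as a filled circle, dotted lines at a 2-fold change, and 1 array per condition behind each circle. Of the 33 measured genes, 20 have both circles right of 0 and 3 have both left of it; the far left circles are Rprm, Perp and Pltp, where 1 siControl array stands above the other 3.

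Among the genes of feedback and p53 control, Trp53, on chromosome 11 of mm9 (69404204 to 69404263), had no common direction. Its normalized log2 signal was 10.17 and 11.26 in siFxr1 and 10.04 and 11.81 in siControl, each in the order of experiments 1 and 2. Both arrays of experiment 2 were brighter than both of experiment 1, and the conditions overlapped. The log2 difference was -0.21 (SE 0.83), at 0.13 in experiment 1 and -0.55 in experiment 2. Here and below, an SE is from the fit without the block unless stated, so it takes in the spread between the experiments.

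Mdm2, the ligase that degrades p53, gave 15.07 and 15.81 in siFxr1 and 14.35 and 14.37 in siControl on chromosome 10 (117126010 to 117126069). The siControl arrays were almost alike and both siFxr1 arrays lay above them. The log2 difference was 1.08 (SE 0.32), which is 1.65-fold in experiment 1 and 2.72-fold in experiment 2. Ccng1 encodes cyclin G1, which brings a phosphatase to MDM2, and had signals of 13.26 and 13.72 in siFxr1 and 12.47 and 12.79 in siControl. Here the 2 experiments gave nearly the same fold, 1.74 and 1.91, and the log2 difference was 0.86 (SE 0.26).

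Trp53inp1, a stress-induced nuclear protein that promotes the apoptotic activity of p53, gave 11.92 and 12.66 in siFxr1 and 11.27 and 11.16 in siControl. The arrays of the conditions did not overlap, and the log2 difference was 1.07 (SE 0.33). Its second probe, dimmer, differed by 0.77 and overlapped between the conditions. The other members of this group were close to 0: Plk3, a kinase that phosphorylates p53, differed by 0.24 (SE 0.37), and the 2 probes of Mdm4, which blocks the activation domain of p53, by -0.07 (SE 0.43) and 0.09 (SE 0.46). So 4 of the 6 feedback genes were higher in both experiments, 3 of them by at least 1.5-fold, beside 35% and 5.82% of all measured genes.

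**Figure D2:**
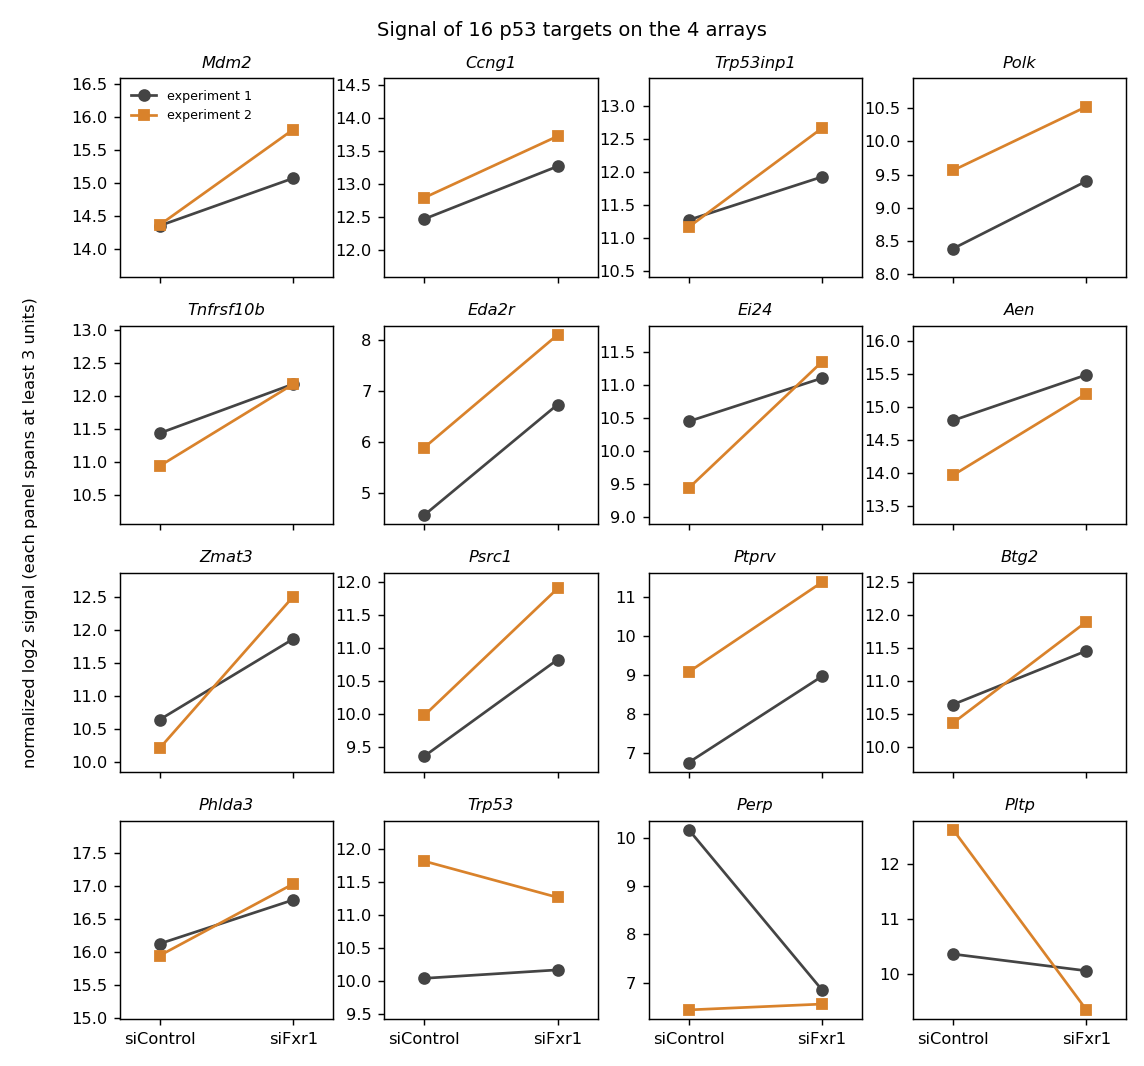
Normalized log2 signal of 16 of the genes on each of the 4 arrays, with siControl on the left and siFxr1 on the right of each panel, and a line joining the 2 arrays of an experiment; each panel has its own range of at least 3 units. In the first 13 panels both lines go up, Trp53 has lines of opposite slope, and Perp and Pltp each have 1 high siControl array.

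The DNA repair genes had the smallest median of the role groups. In both experiments 2 of the 6 were higher, beside 35% of all measured genes. Polk, a polymerase that copies past damaged bases, stood out on chromosome 13 (97251653 to 97251712), with 9.40 and 10.53 in siFxr1 and 8.38 and 9.56 in siControl. Within each experiment siFxr1 was higher, by 2.03-fold and 1.95-fold, but the experiments differed so much that the conditions overlapped. The log2 difference was 0.99 (SE 0.66), and the second probe of Polk differed by 0.95.

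Ercc5, the endonuclease XPG of nucleotide excision repair, gave 10.04 and 11.43 in siFxr1 and 9.89 and 10.57 in siControl, a log2 difference of 0.50 (SE 0.62). Most of it came from experiment 2, where the fold was 1.82, against 1.10 in experiment 1. Xpc, which recognises damage in the same pathway, gave 10.64 and 10.76 in siFxr1 and 9.70 and 10.95 in siControl. It was 1.91-fold higher in experiment 1 and slightly lower in experiment 2, so the difference of 0.37 (SE 0.51) rests on 1 low siControl array. Ddb2, the partner of XPC at ultraviolet lesions, was slightly lower in both experiments (-0.12, SE 0.54). Gadd45a, a damage-induced growth arrest gene, differed by -0.16 (SE 0.38). Rrm2b, the ribonucleotide reductase subunit that supplies nucleotides for repair, differed by 0.33 (SE 0.75) at its brighter probe, while the other was well above background on 1 array and gives no difference.

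Of the death receptors and apoptosis genes, 5 of 7 were higher in both experiments, beside 35% of all measured genes. In the same 5, both siFxr1 arrays lay above both siControl arrays, beside 17.3%. The 5 include Eda2r, which passed the filter on dim probes through its siFxr1 arrays alone. Eda2r, the receptor of ectodysplasin A2, lies on chromosome X (94534281 to 94534340) and gave 6.74 and 8.11 in siFxr1 and 4.56 and 5.89 in siControl. The siControl array of experiment 1 was not well above background. With the scanner software's background correction, the ratio of siFxr1 to siControl in experiment 1 was 4.52. This ratio rests on a siControl signal not told apart from background, so it is no firm fold, and it holds for this correction only. In experiment 2 the signal was 4.66-fold higher, and the log2 difference was 2.20 (SE 0.76). The size depended on the background correction, since the log2 difference was 1.05 with normexp correction and 0.96 on uncorrected intensities. Its second probe was at the edge of detection, with 5.05 and 5.39 in siFxr1 and 5.55 and 2.78 in siControl. That probe was well above background on 1 array of each condition, so no difference is given for it.

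Tnfrsf10b, the mouse receptor of the death ligand TRAIL, gave 12.18 on both siFxr1 arrays and 11.44 and 10.94 in siControl. The log2 difference was 0.99 (SE 0.24), and the fold was 1.67 in experiment 1 and 2.35 in experiment 2. The other classical receptor, Fas, differed by 0.18 (SE 0.23), lower in siFxr1 in experiment 1 and higher in experiment 2. Ei24, an endoplasmic reticulum protein, gave 11.11 and 11.35 in siFxr1 and 10.45 and 9.44 in siControl, a log2 difference of 1.28 (SE 0.43). Its siFxr1 arrays were close together and the siControl arrays apart, so that the fold was 1.57 in experiment 1 and 3.76 in experiment 2.

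Aen, an apoptosis-enhancing nuclease, gave 15.49 and 15.20 in siFxr1 and 14.80 and 13.97 in siControl. Its 2 probes, which overlap by all but 10 bases and are thus no independent measure, differed by 0.96 (SE 0.37) and 0.91 (SE 0.38). Apaf1, the scaffold of the apoptosome, differed by 0.66 (SE 0.41), which came from experiment 2 with 2.43-fold against 1.03-fold in experiment 1. Perp, a membrane protein of cell junctions and apoptosis, was the exception of the group. It gave 6.85 and 6.56 in siFxr1 and 10.17 and 6.44 in siControl, so that only the siControl array of experiment 1 was high. The difference of -1.60 (SE 1.48) is that array's, and without it Perp differed by 0.27.

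Of 14 measured metabolism or growth restraint genes, 9 were higher and 2 lower in both experiments, beside 35% and 31.5% of all genes. Ptprv, a tyrosine phosphatase linked to cell-cycle exit after p53 activation, had the largest difference of all measured members at the brightest probes. It gave 8.96 and 11.38 in siFxr1 and 6.74 and 9.07 in siControl on chromosome 1 (137006182 to 137006241). Experiment 2 was brighter in both conditions, so the conditions overlapped, while the fold within the experiments was 4.65 and 4.97. The log2 difference was 2.27, with an SE of 1.33 without the block. In the block fit of all probes the SE was 0.19 and the limma adjusted p 0.535. In the block fit without dim probes the SE was 0.23 and the limma adjusted p 0.030. The second probe of Ptprv was not well above background in siControl of experiment 1, and in experiment 2 it differed by 2.18.

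Zmat3, a zinc-finger protein that binds RNA, gave 11.86 and 12.50 in siFxr1 and 10.64 and 10.21 in siControl on chromosome 3 (32233831 to 32233890). The conditions were far apart, with a log2 difference of 1.76 (SE 0.34) and a fold of 2.33 in experiment 1 and 4.90 in experiment 2. Psrc1, a microtubule-binding protein, gave 10.83 and 11.90 in siFxr1 and 9.37 and 9.98 in siControl, with a log2 difference of 1.69 (SE 0.51). It was higher within both experiments, by 2.75-fold and 3.79-fold. In the block fit its limma adjusted p was 0.049 without dim probes and 0.535 with all probes. Btg2, an antiproliferative factor that recruits the deadenylase of mRNA decay, gave 11.46 and 11.90 in siFxr1 and 10.65 and 10.37 in siControl, a log2 difference of 1.17 (SE 0.25).

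Phlda3, which competes with the kinase AKT for membrane lipids, gave 16.78 and 17.03 in siFxr1 and 16.12 and 15.94 in siControl. The replicates were close together, with a log2 difference of 0.87 (SE 0.19), and Phlda3 was 1 of the 2 members called in the fit of the 4 ratios. The sestrins Sesn1 and Sesn2 restrain the growth kinase mTORC1. Sesn2 gave 12.32 and 12.64 in siFxr1 and 11.75 and 11.33 in siControl, a log2 difference of 0.94 (SE 0.25). Sesn1 differed by 0.44 (SE 0.37) and by almost the same amount in both experiments, 0.45 and 0.44, but its conditions overlapped. Ddit4, which restrains the same kinase, was bright on all arrays, between 16.02 and 16.42, and differed by 0.12 (SE 0.21).

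The kinase Plk2 differed by 0.60 (SE 0.23), with both siFxr1 arrays above both siControl arrays. The sugar and carbonyl reductase Dcxr differed by 0.52 (SE 0.61), nearly all from experiment 2. Sertad1, a regulator of E2F and CDK4 activity, differed by 0.11 (SE 0.29), and the iron reductase Steap3 by 0.05 (SE 0.32) at its brighter and -0.48 (SE 0.37) at its other probe. None of these 4 genes reached 1.5-fold in both experiments.

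Both genes of this group that were lower in both experiments were of metabolism. Fdxr, the mitochondrial ferredoxin reductase, gave 13.02 and 13.07 in siFxr1 and 13.34 and 13.46 in siControl, a small but even log2 difference of -0.35 (SE 0.15). Pltp, the phospholipid transfer protein of plasma, gave 10.05 and 9.33 in siFxr1 and 10.36 and 12.64 in siControl. The siControl array of experiment 2 was far above the others, and the difference of -1.81 (SE 0.95) was -0.31 in experiment 1 and -3.30 in experiment 2.

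Rprm, a mediator of arrest before mitosis, was the member that did not count as measured. Its signal was 2.80 and 2.88 in siFxr1 and 9.37 and 2.98 in siControl, well above background in siControl of experiment 1 alone. No fold is given for it, since the other 3 arrays bound its level only. Across the 15941 genes well above background on at least 1 array, the siControl array of experiment 1 exceeded the next brightest array by at least 8-fold in 55 genes (0.345%), and the other arrays did so in 12 to 45. Rprm and Perp were 2 of those 55, by a limit that was set after their values were seen.

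**Figure D3:**
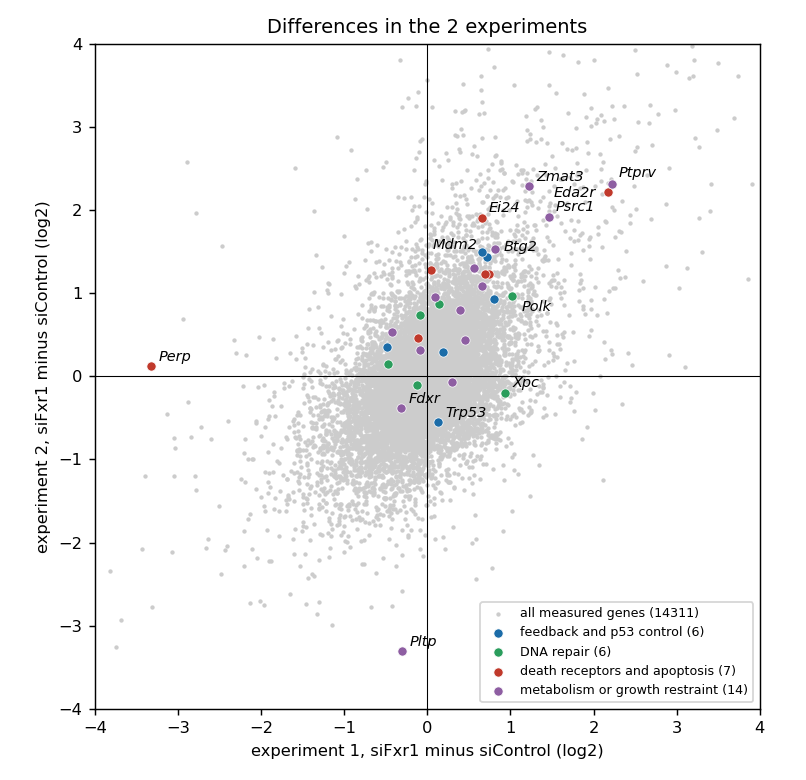
Difference between siFxr1 and siControl in experiment 1 against that in experiment 2, on the log2 scale, with grey points for 14311 measured genes with values on all arrays and coloured points for the 33 measured members by role. Most coloured points lie at the upper right, with Ptprv, Eda2r, Zmat3 and Psrc1 farthest out, while Trp53 lies near the centre; genes beyond 4 on either axis are outside the plot.

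The differences were not alike in the experiments. The signed difference, siFxr1 minus siControl, was higher in experiment 2 for 26 of the 33 members, compared with 7523 of 14311 genes. By absolute size the difference was larger in experiment 2 for 25 members, a count that was not made over all genes. Across the 33 members the differences of the experiments correlated at a Pearson's r of 0.54 and a Spearman's rho of 0.71, and across all genes at 0.55 and 0.48. These are descriptions across genes that share the same 4 arrays. Residual Fxr1 was higher in experiment 2, and the siFxr1 RNA of experiment 1 had the lower integrity number. Their part in the larger differences was not tested.

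The experiments also differed from each other whatever the siRNA. The leading number of the sample titles is shared within each experiment and differs between them. Differences of the cultures and of array handling can therefore not be told apart here. At least 2-fold brighter in experiment 2 in both conditions were 4 members (Trp53, Polk, Eda2r and Ptprv), beside 3.53% of all genes, and 0 members were at least 2-fold dimmer in both, beside 4.51%. All 5 myotube markers moved the other way. Their summed signal, as a log2 value, was 17.44 and 17.66 in siFxr1 and siControl of experiment 1 and 15.38 and 15.77 in experiment 2. Between the conditions the markers differed by a median of -0.25. Fewer differentiated cells and less of these transcripts per cell cannot be told apart in bulk RNA, and the part of differentiation in the levels of the p53 targets was not tested.

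**Figure D4:**
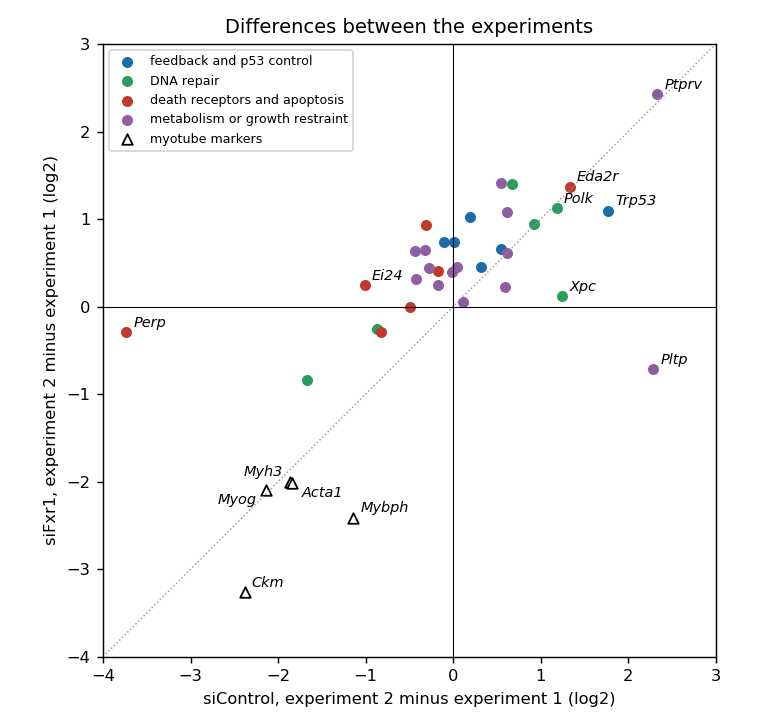
Difference between experiment 2 and experiment 1 in siControl (horizontal) and in siFxr1 (vertical), on the log2 scale, for the 33 measured members by role and for 5 myotube markers as triangles; the dotted line marks equal differences. The myotube markers are lower in experiment 2 in both conditions, Trp53, Polk, Eda2r and Ptprv are higher in both, and Perp and Pltp lie far from the line through 1 siControl array each.

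Other genes of the p53 pathway were read from a list of 26, of which 25 are named on the array and 22 were measured. Of 11 measured upstream regulators (kinases, ligases and relatives of p53), 1 was higher in both experiments and 5 were lower. Beside them stand 35% and 31.5% of all measured genes, and the median log2 difference of the 11 was -0.03. The one higher was Ppm1d, a phosphatase that switches p53 off and is itself a p53 target (0.54). Atm, the kinase that signals DNA breaks, was lower in both experiments at both its probes (-0.83 and -1.07). Hipk2, a kinase of p53, was lower at its brighter probe (-0.36) and higher at the other (0.98). No probe of Cdkn2a, whose ARF product inhibits MDM2, was well above background on any array.

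Of 11 further measured targets, 7 were higher in both experiments and 2 lower, beside 35% and 31.5% of all measured genes. The median log2 difference of the 11 was 0.54. Dram1, an autophagy gene, gave 9.71 and 9.63 in siFxr1 and 8.71 and 8.58 in siControl, a log2 difference of 1.02 (SE 0.16), and at the brightest probes was the only one of these 11 that was at least 1.5-fold higher in both experiments. Bbc3, the apoptosis inducer PUMA, differed by 0.70. Cdkn1a, counted here because the choice of members left it out, has 3 probes, all well above background on the 4 arrays, which disagree in size. They differed by 0.90 (0.08 in experiment 1 and 1.71 in experiment 2) at the brightest, by 0.64 (0.60 and 0.67) at the next and by 3.37 (2.85 and 3.89) at the third. At the brightest probes, 0 of the 22 genes were called in the fit with the condition alone or in the block fit without dim probes. In the fit of the 4 ratios 1 was called higher, Dram1, beside 1.38% of all genes. The third probe of Cdkn1a had a B value above 0 in the latter 2 fits, at 2.91 in the block fit and 0.38 with the ratios.

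The half-sites shown above were set beside these values. Among the 13 members at least 1.5-fold higher in both experiments, 9 have a promoter window and 5 of these hold a half-site (Mdm2, Ccng1, Polk, Aen and Ei24). Among the other 21 members, 17 have a window and 3 hold one (Trp53, Gadd45a and Sesn1). Of the 4 members that were at least 2-fold higher in both experiments, Zmat3 and Ptprv have no window here, and those of Eda2r and Psrc1 hold no half-site. These counts were made after the values were known and are not tested. They also depend on the processing. With normexp correction, uncorrected intensities or the authors' table, Aen left the set of 13 and Sesn2, which holds no half-site, joined it.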

How the data were processed

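Total RNA of 4 C2C12 samples, 2 siFxr1 and 2 siControl, was labelled with Cy3 and read on Agilent 8x60K mouse arrays. Per the file headers the authors deposited the intensity of each of 62976 spots as given by Agilent Feature Extraction 10.7.3.1, background-corrected within the array and not normalized between arrays. A further deposited table, of quantile-normalized intensities, served as an alternative. Probe positions are those of the array design on mm9, and their place in an exon or UTR was not annotated here. In R 4.3.3 with limma 3.58.1, the corrected intensities were put on the log2 scale and the 59305 non-control spots were quantile-normalized between arrays. Spots marked as outliers (145 to 177 per array) were set to missing and spots of a probe were averaged. All 55681 probes were fitted with the condition as the only term, since the study's methods name limma and quantile normalization, select by B above 0 and mention no block. They also average ratios from all comparisons before the B test, without stating which ratios entered it, so the 4 ratios were fitted as an alternative. A gene name counts where RefSeq's table for GRCm38.p6 holds it as a symbol or synonym.

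A call needs a B value above 0, with the Benjamini-Hochberg adjusted p under 0.05 beside it. Differences were fitted on the log2 scale, and a value named as a fold is linear. Precision is limited by the number of arrays, and with 2 against 2 an exact two-sided permutation test cannot go below p = 0.333. Within an experiment there is 1 array per condition and no test. The labels number the replicates by experiment, so the numbers pair the samples, and deviations of same-numbered samples from the condition means correlated at 0.714. No 2 arrays held the same values. The fits were also run on simulated data with known changes, as a check of the code. Calls were required there only of the block fit, without a difference between the experiments.

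Values on all arrays are given for Trp53, Mdm2, the members at least 2-fold changed in both experiments and the 3 largest differences of each role group among members well above background on all arrays. Btg2, Phlda3, Sesn2, Aen, Fdxr, Rprm and Dram1 were added after their values were seen, as were the 1.5-fold limit, the limit for single bright arrays and the counts over members well above background on all arrays. The members and lists were chosen with earlier results of these data known.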

Additional observations from a re-analysis of the deposited data

How the results depend on the processing

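The median log2 difference of the members stayed between 0.495 and 0.546 in the fits that used all arrays, which were the replicate block, the 4 ratios, the mean of a gene's measured probes, dim probes filtered out, scaling to the 75th percentile, normexp (offset 50), uncorrected intensities and the table that the authors normalized. With 1 array left out it ranged from 0.309 (without siFxr1 replicate 2) to 0.826 (without siFxr1 replicate 1), and 0 members were called. The count of called members, 0 otherwise, was 3 in the replicate block with the filter on dim probes and 2 with the 4 ratios as observations. The replicate block alone left it at 0 and changed no other call.

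At least 2-fold higher in both experiments were 3 to 4 members. Eda2r fell short with normexp, with uncorrected intensities and with the authors' table, and Mdm2 passed with uncorrected intensities. Between 12 and 14 members were at least 1.5-fold higher in both. With 75th percentile scaling, 23 were higher in both, because Rrm2b, Ddit4 and Sertad1 joined. The median log2 difference of all measured probes was then 0.07, against 0.02 with the quantile normalization of the main fit. Shares of all genes past these limits were not computed for the alternatives, so these counts have no such comparison. Among the 19 genes recomputed singly, directions turned only with 1 array left out, in 4 genes. Trp53 then ranged from -1.10 to 0.68, turning to 0.34 without siFxr1 replicate 1 and to 0.68 without siControl replicate 2. Ercc5 ranged from -0.19 (without siFxr1 replicate 2) to 1.20. Without siControl replicate 1, Xpc turned to -0.25 and Perp to 0.27, with the other ends of their ranges at 0.99 and -3.47. These fits have the condition as their only term. With 1 array left out, a difference between the experiments therefore enters the difference between the conditions. Trp53 was brighter in experiment 2 by 1.77 in siControl and 1.10 in siFxr1. Any other cause was not tested. Eda2r, a dim probe, differed by 0.96 to 2.25 over the scaling and background alternatives.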
